A study of Mus musculus with 8 samples.

Results

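Integrins, laminins, thrombospondins and tenascins are 4 families of cell surface receptors and matrix proteins that join cells to the material around them. Their genes were chosen by symbol alone, through the RefSeq accession of each probe: integrin alpha and beta chains, laminin alpha, beta and gamma chains, the numbered thrombospondins, and Tnc, Tnn, Tnr and Tnxb. The RefSeq table held 46 such symbols, and 44 of them had a probe, out of 20660 genes with a named probe. These were 16 integrin alpha chains, 9 integrin beta chains, 11 laminin chains, 4 thrombospondins and 4 tenascins, and Itga10 and Itgae had no probe matched by name. Messenger RNA of whole gastrocnemius and tibialis anterior (TA) muscle had been measured on 8 Agilent arrays, 4 for each muscle, to ask what reduced Eif6, a translation factor that also acts in the making of the large ribosomal subunit, changes in muscle. Each array carried RNA of 1 Eif6+/- mouse (heterozygous, labelled with Cy5) and of 1 wild-type (WT) mouse matched for age (labelled with Cy3). All mice were male C57BL6 littermates of 8 to 16 weeks with no treatment, the mutants lacked 1 working Eif6 copy in every tissue rather than in muscle alone, and a pair number (1 to 4) names an array within a muscle. The design names 4 mice of each genotype, and the labels do not say whether an equal pair number in both muscles marks the same mice. No array had the dyes exchanged, so dye and genotype cannot be told apart, and the arrays of each muscle lay in a separate row of 1 slide, so muscle and row cannot be told apart.

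An integrin is a receptor of 1 alpha and 1 beta chain that spans the cell membrane, binds matrix proteins outside the cell and couples them to the actin skeleton inside. In skeletal muscle the receptor made of Itga7 and Itgb1, together with the dystroglycan complex, ties each fibre to laminin, whose alpha, beta and gamma chains assemble into the sheet of basement membrane around fibres, nerves and vessels. Thrombospondins and tenascins do not build the sheet; they are secreted into the matrix, where they bind cells, collagens and growth factors, and several are plentiful in tendon and at the ends of fibres.

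The genotype labels were checked against Eif6 itself. The log2 ratio of Eif6+/- over WT for its mRNA was −0.97, −1.15, −0.89 and −1.06 on gastrocnemius pairs 1 to 4, and −1.22, −1.03, −0.95 and −0.80 on the TA pairs. Every pair showed about 1 log2 unit less Eif6 mRNA in the Eif6+/- mouse, with means of −1.02 ± 0.11 in gastrocnemius (SD, n = 4 pairs; adjusted p = 0.0239) and −0.999 ± 0.17 in TA (adjusted p = 0.0108). Without pair 3 or without pair 4 the gastrocnemius value was not called (adjusted p = 0.121 and 0.155; range over 15 alternatives 0.000659 to 0.155). All 8 markers of muscle fibres, among them Acta1 and Ckm, stood above background in both muscles. Median spot signals were 60 to 74 in Cy5 and 46 to 61 in Cy3 over local backgrounds of 41 to 44 and 20 to 22, so many probes lay near background. Having 4 arrays in each muscle sets how precise a mean can be.

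Of the 44 genes, 35 were bright enough to test in gastrocnemius and 33 in TA, and the 33 were tested in both. A probe was tested where at least 1 channel stood well above background on all 4 arrays of the muscle. Itga2, Itga2b, Itgad, Itgax, Itgb2l, Itgb8, Lama1, Tnn and Tnr were tested in neither muscle, and Lamb3 and Tnc only in gastrocnemius. Some genes passed through the Eif6+/- channel alone: Lamb3, Tnc and Lamc3 were well above background in WT gastrocnemius on 3 of 4 arrays, and Lamc3 in WT TA on 2 of 4, against 4 of 4 in the Eif6+/- channel. Lamb3 read higher in that channel on 3 of the 4 gastrocnemius arrays, so the filter can favour a higher ratio for it, while Tnc read lower in it on all 4. The other members tested were well above background in both channels of all 4 arrays.

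In gastrocnemius, 5 of the 35 genes tested passed the test, all of them lower in Eif6+/- muscle: the integrin chains Itga5, Itgb1 and Itgb2, the laminin chain Lama4 and the tenascin Tnxb. In TA, 3 of 33 passed, 2 lower, Lamb2 and Itgb2, and 1 higher. A gene was called at an adjusted p under 0.1 from limma. Among all genes tested in gastrocnemius 15.4% were called, 9.89% higher and 5.55% lower. The members' share there was 14.3%, near that background, while the direction of their calls was lower for all 5. In TA 16.2% of all genes were called, 8.98% higher and 7.27% lower, and the members' share was 9.09%. At an unadjusted p under 0.05 limma counted 10 members in gastrocnemius, where 3658 of all 12612 genes were under it, and 8 in TA, where 3599 of 12384 were, so the members' share was no larger than that of all genes. No member was called higher in gastrocnemius by that fit, whereas SAM and the fit of both muscles at once each called 1 higher there, Lamb3. Without gastrocnemius pair 3 or without pair 4 limma called 0 members and 0 of 12612 genes, with 6 members at an unadjusted p under 0.05 each time, and without TA pair 1 it called 0 members and 68 genes, with 7 members at that unadjusted level.

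The families leaned to lower values in gastrocnemius. The median log2 ratio of the members tested was −0.11 in gastrocnemius and −0.09 in TA, beside a median of 0.02 over all genes tested in either muscle. In gastrocnemius 27 of 35 members had a mean below 0 (77.1%, against 46.1% of all genes), and in TA 19 of 33 (57.6%, against 46% of all genes). In gastrocnemius, 11 of 35 (31.4%) lay below 0 on all 4 gastrocnemius arrays, where 13.9% of all genes did: Itga3, Itga5, Itga7, Itgav, Itgb1, Itgb2, Lama3, Lama4, Thbs2, Tnc and Tnxb. No member lay above 0 on all 4, where 21.4% of all genes did. In TA 6 of 33 (18.2%) lay below 0 on all 4 arrays, against 15.6% of all genes, and 2 (6.06%) lay above, against 19.8%. By array the median of the members was −0.11, −0.07, −0.32 and −0.09 in gastrocnemius and −0.04, −0.22, 0.13 and −0.10 in TA, so gastrocnemius pair 3 was the lowest and TA pair 3 the highest.

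**Figure D1:**
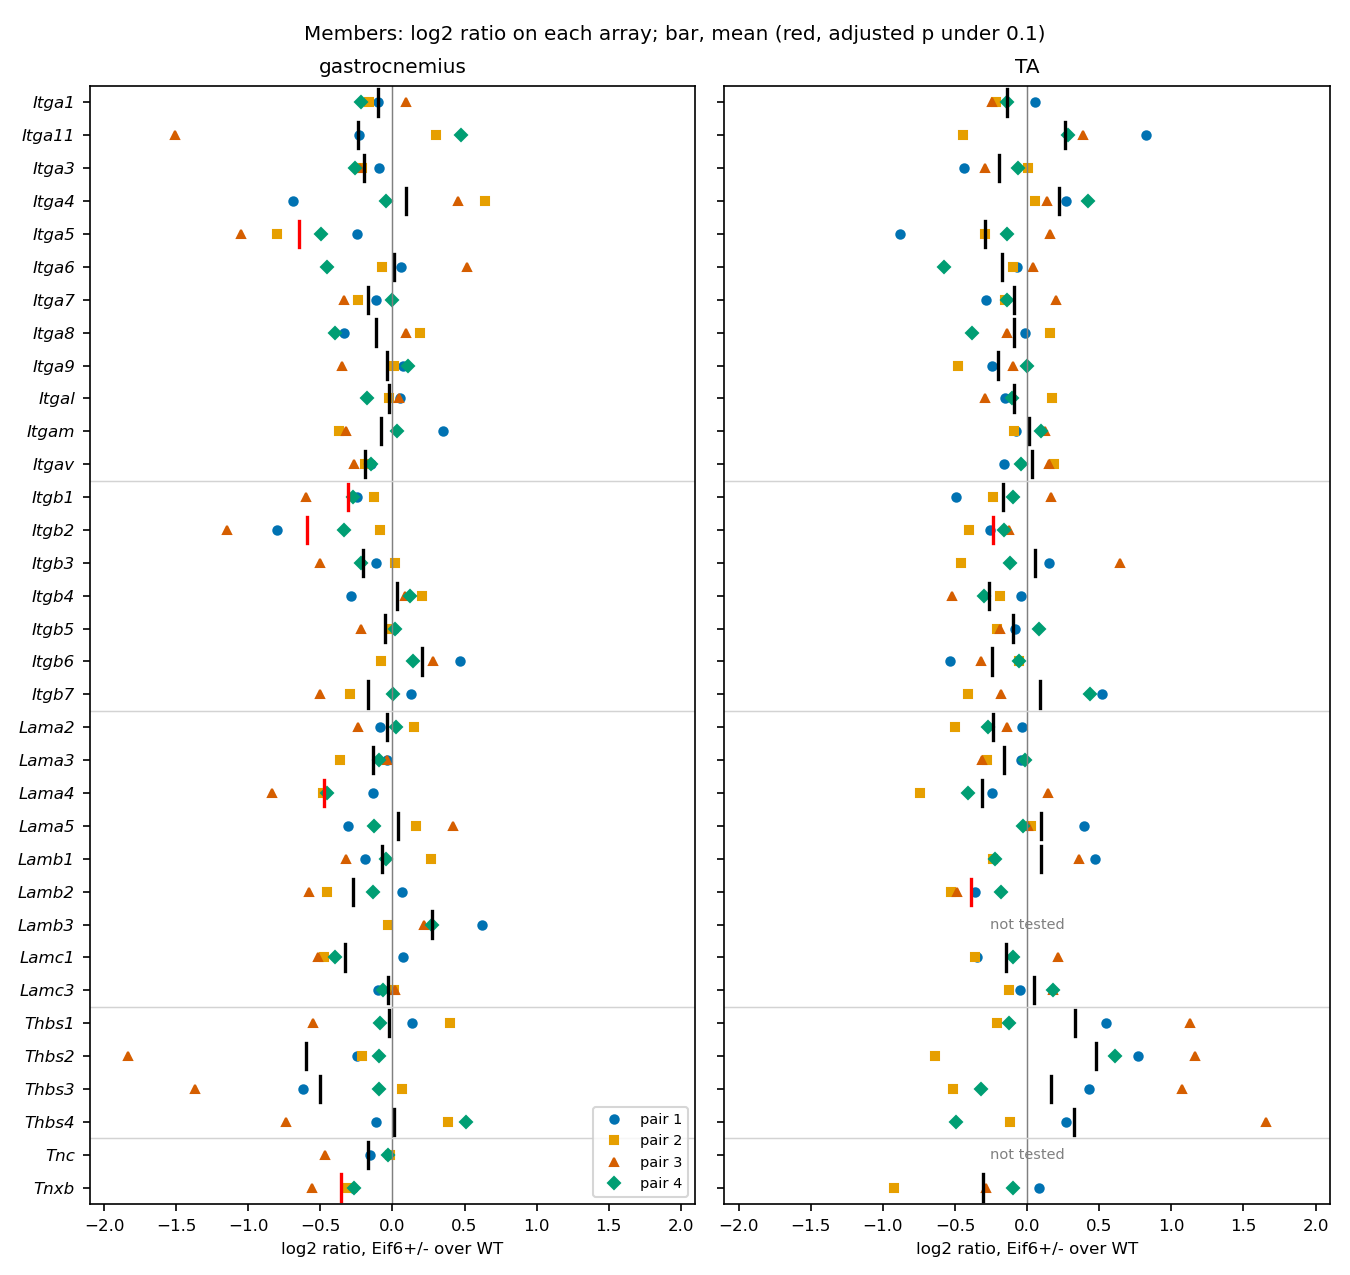
Log2 ratio of Eif6+/- over WT for the members tested (1 not shown), 1 mark per array and a bar at the mean of 4 pairs (red where the adjusted p was under 0.1), gastrocnemius at left and TA at right. The integrin and laminin values mostly sit within 1 log2 unit of 0, while the thrombospondins and Itga11 spread from −1.84 to 1.65 between pairs.

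Among the receptors, Itga5, the alpha chain that pairs with Itgb1 to bind fibronectin, had the lowest mean of the members in gastrocnemius. Its log2 ratios were −0.24, −0.80, −1.05 and −0.49 on gastrocnemius pairs 1 to 4. All 4 pairs were lower in the Eif6+/- mouse, pair 3 the most and pair 1 the least. On the normalized log2 intensity scale the Eif6+/- mice held a narrow range, 6.49, 6.49, 6.59 and 6.52, while the WT mice read 6.73, 7.29, 7.63 and 7.01, so the groups did not overlap and the WT mice spread more widely. The Eif6+/- readings are low on this scale, where the added offset of 50 narrows differences between dim spots, and the part of that in their narrow range was not tested. The mean was −0.65 ± 0.35 (SD, n = 4 pairs), a level 1.57 times lower (adjusted p = 0.0433). This size depends on the background step, since the mean was −1.13 with a normexp offset of 0 and −1.18 with Agilent's signals. The call was lost without pair 3 (adjusted p = 0.146) or pair 4 (0.162), within a range of 0.0261 to 0.162 over 15 alternatives, of which 3 ended it. In TA the ratios were −0.88, −0.29, 0.16 and −0.14, which fell on both sides of 0, with a mean of −0.29 ± 0.44 (adjusted p = 0.233).

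Itgb1 encodes the beta chain shared by most integrins of muscle, those for laminin, collagen and fibronectin among them. Its gastrocnemius ratios were −0.24, −0.13, −0.60 and −0.28, all below 0, with pair 3 the lowest. The mean was −0.31 ± 0.20 (n = 4 pairs), 1.24 times lower, at an adjusted p of 0.0925, and the call ended without pair 1 (0.125), pair 3 (0.271) or pair 4 (0.239). It was the least stable of the gastrocnemius calls, ended by 9 of 15 alternatives (adjusted p from 0.0763 to 0.353). A second probe for Itgb1 read −0.04 (adjusted p = 0.766), so the lower value rested on the brighter of its probes, and the mean over both was not called (0.196). TA ratios were −0.49, −0.24, 0.17 and −0.10, mixed in sign, with a mean of −0.17 ± 0.27 (adjusted p = 0.334).

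Itgb2 encodes the beta chain of the integrins of leukocytes, where it pairs with Itgal, Itgam, Itgax or Itgad, and it was called lower in both muscles. Gastrocnemius ratios were −0.80, −0.09, −1.15 and −0.34, and TA ratios were −0.26, −0.40, −0.13 and −0.16. All 8 were below 0, and in gastrocnemius pairs 1 and 3 stood far below pair 2. There the WT mice of pairs 1 and 3 read 7.57 and 8.03 in normalized log2 intensity and those of pairs 2 and 4 read 6.98 and 7.03, whereas the Eif6+/- mice lay between 6.69 and 6.89. The means were −0.59 ± 0.47 in gastrocnemius (1.51 times lower, adjusted p = 0.079) and −0.24 ± 0.12 in TA (1.18 times lower, adjusted p = 0.0902). With a normexp offset of 0 they were larger, −0.90 and −0.44, and Agilent's signals gave −0.87 and −0.44. Without gastrocnemius pair 1, 3 or 4 the adjusted p was 0.144, 0.234 and 0.183, and in TA the call was lost without any one pair (0.276, 0.263, 0.123 and 0.109 without pairs 1 to 4). Over 15 alternatives the adjusted p ran from 0.0234 to 0.236 in gastrocnemius, where 6 ended the call, and from 0.0738 to 0.313 in TA, where 9 did. The alpha partners Itgal and Itgam were not called, with means of −0.02 and −0.08 in gastrocnemius and −0.09 and 0.01 in TA, and Itgax and Itgad were not tested. A second Itgam probe read 0.04 in gastrocnemius and 0.21 in TA, above 0 on all 4 TA arrays (adjusted p = 0.11). A further Itgam probe read 0.002 and −0.06.

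Markers of macrophages and other leukocytes moved on the same gastrocnemius arrays as Itgb2. Of 11 markers 9 were tested in gastrocnemius, and Cd74, Cd14 and C1qc were called lower (log2 ratios of −1.10, −0.63 and −0.79; adjusted p = 0.0445, 0.0702 and 0.0926), with none higher and a list median of −0.79. The median of the markers was −1.34, 0.03, −1.44 and −0.26 on pairs 1 to 4, low on pairs 1 and 3 as for Itgb2. Their summed normalized intensity was 5256 in Eif6+/- and 11550 in WT on pair 1, 6206 and 6263 on pair 2, 5656 and 16390 on pair 3, and 5131 and 6034 on pair 4, with Csf1r the brightest. Ptprc was not above background in gastrocnemius and Cd68 had no named probe. In TA 10 were tested, C1qb was called lower (−0.46, adjusted p = 0.0518), and the median was −0.07. By pair the TA median was 0.09, −0.48, 0.17 and −0.19, with sums of 4874 and 4303, 3010 and 4574, 4829 and 4407, and 5089 and 5630 in Eif6+/- and WT. The part of these cells in the Itgb2 values was not tested, and in RNA of whole muscle fewer cells of a type and less RNA per cell cannot be told apart. Without gastrocnemius pair 3 or pair 4 none of the markers was called, without pair 1 the count was 1, without pair 2 it was 7, and in TA it was 0 without pair 1 or pair 4.

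**Figure D2:**
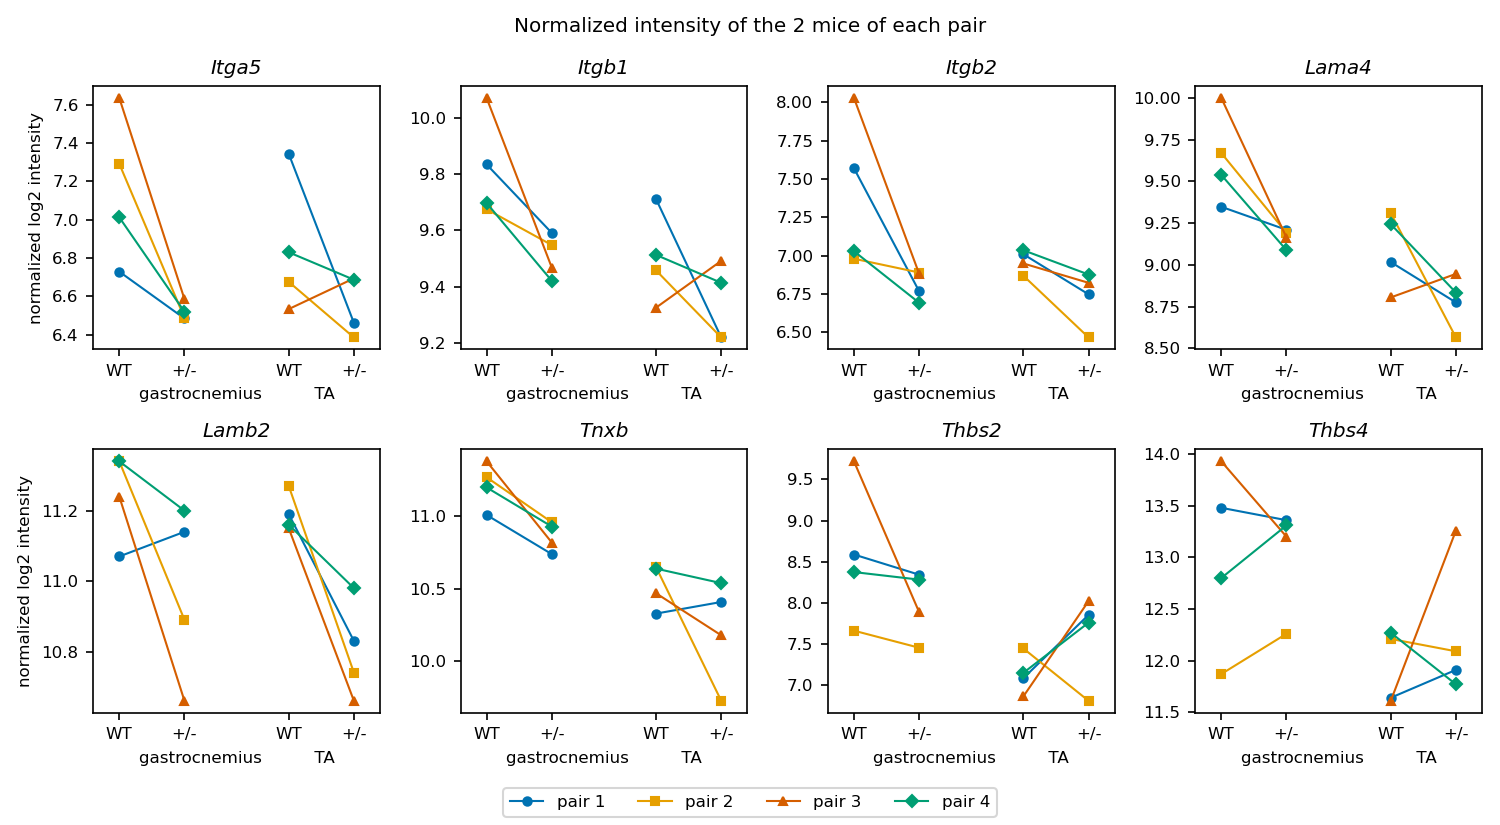
Normalized log2 intensity of 8 members in the WT and Eif6+/- mouse of each pair, with a line joining the mice of 1 array. The Eif6+/- values of Itga5 and Lama4 in gastrocnemius lie close together while their WT values spread.

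Among the laminins, Lama4, an alpha chain found mostly in the basement membrane of blood vessels, was called lower in gastrocnemius. The ratios there were −0.14, −0.48, −0.84 and −0.45, all below 0 and lowest on pair 3. WT mice read 9.35, 9.67, 10.00 and 9.54 in normalized log2 intensity and Eif6+/- mice 9.21, 9.19, 9.16 and 9.09, so the groups did not overlap. The mean was −0.48 ± 0.29 (1.39 times lower, adjusted p = 0.0578), and the call was lost without pair 2 (0.106), pair 3 (0.181) or pair 4 (0.188), among 5 of 15 alternatives that ended it (adjusted p from 0.0412 to 0.277). In TA the ratios were −0.24, −0.75, 0.14 and −0.41, lower on 3 of 4 pairs, with a mean of −0.31 ± 0.37 that was not called (adjusted p = 0.155). Without TA pair 3, the pair above 0, Lama4 was called there too (0.0691, with a range of 0.0691 to 0.442 over the alternatives).

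Of 8 endothelial markers, 2 were called lower in gastrocnemius and 4 in TA. All 8 were tested, and in gastrocnemius Cldn5 and Tie1 were called lower (−0.63 and −0.54; adjusted p = 0.0397 and 0.0504) and none higher, with a list median of −0.25, while Kdr, Tek and Emcn lay at −0.04, −0.04 and −0.03. In TA Cldn5, Tie1, Pecam1 and Emcn were called lower (−0.67, −0.49, −0.32 and −0.28; adjusted p = 0.0243, 0.029, 0.065 and 0.0695), with a median of −0.22 and Kdr at −0.02. The list median was below 0 on each of the 8 arrays, from −0.39 to −0.18, unlike Lama4, which lay above 0 on TA pair 3. Summed intensities in Eif6+/- and WT were 5645 and 6722, 5426 and 7001, 5284 and 6214, and 5885 and 6466 in gastrocnemius, and 5375 and 6822, 5642 and 6458, 5069 and 5570, and 5733 and 5940 in TA, with Vwf the brightest. The part of vessel cells in the Lama4 values was not tested. No endothelial marker was called without gastrocnemius pair 3 or pair 4 or without TA pair 1, and 2 were called without TA pair 2 or TA pair 4.

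Tnxb encodes tenascin X, which binds collagen fibrils and is made largely by connective tissue cells. Its gastrocnemius ratios were −0.27, −0.31, −0.56 and −0.27, an even lowering on pairs 1, 2 and 4 and a larger one on pair 3. The mean was −0.35 ± 0.14 (n = 4 pairs), 1.28 times lower (adjusted p = 0.0526), and the call ended without pair 3 (0.179) or pair 4 (0.171), among 5 of 15 alternatives that ended it (adjusted p from 0.0476 to 0.225). In TA the ratios were 0.08, −0.92, −0.28 and −0.10, in which pair 2 stood apart from the rest, with a mean of −0.30 ± 0.44 (adjusted p = 0.211). Tnc, a tenascin of tendon and of muscle under repair, was below 0 on all 4 gastrocnemius arrays, with a mean of −0.17 (adjusted p = 0.303).

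In TA Lamb2 was called lower. This beta chain, concentrated in the basement membrane at the nerve contact of muscle fibres, had ratios of −0.36, −0.53, −0.48 and −0.18. All 4 were below 0, and the Eif6+/- mice, at normalized log2 intensities of 10.83, 10.74, 10.66 and 10.98, did not overlap the WT mice, at 11.19, 11.27, 11.15 and 11.16. The mean was −0.39 ± 0.16 (1.31 times lower, adjusted p = 0.0351), and the call was lost without pair 1 (0.164) or pair 2 (0.115) and held under the other 13 of 15 alternatives (adjusted p from 0.0243 to 0.164). In gastrocnemius its ratios were 0.07, −0.46, −0.58 and −0.13, with a mean of −0.28 ± 0.30 (adjusted p = 0.186), and without pair 1, which lay above 0, Lamb2 was called (0.0881, with a range of 0.0881 to 0.54 over the alternatives).

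Lama3 and Lamb3, chains of the laminin of epithelial basement membranes, were not called by limma in either muscle's own fit. Lamb3, tested in gastrocnemius alone, had a mean of 0.27 there (adjusted p = 0.17) and was called higher by SAM and with both muscles in 1 fit. Lama3 had means of −0.13 in gastrocnemius and −0.16 in TA, below 0 on all 8 arrays.

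The chains by which muscle fibres hold laminin were mostly not called. Itga7, the laminin-binding alpha chain of fibres, read −0.12, −0.24, −0.33 and −0.00 in gastrocnemius and −0.29, −0.15, 0.20 and −0.14 in TA. These means, −0.17 ± 0.14 (adjusted p = 0.228) and −0.09 ± 0.21 (adjusted p = 0.533), stayed small in both muscles. Lama2, the main laminin alpha chain of the fibre's own basement membrane, read −0.09, 0.15, −0.24 and 0.03 in gastrocnemius, on both sides of 0, with a mean of −0.04 ± 0.17 (adjusted p = 0.813). In TA it read −0.03, −0.50, −0.14 and −0.27, all below 0, with a mean of −0.24 ± 0.20 (adjusted p = 0.13). The gastrocnemius mean of Lama2 has no settled sign, since it was 0.03 without pair 3, and its second probe gave 0.15 (adjusted p = 0.276).

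Lamb1 and Lamc1 complete the commonest laminin of the fibre with Lama2. Lamb1 read −0.19, 0.27, −0.32 and −0.05 in gastrocnemius and 0.47, −0.23, 0.36 and −0.22 in TA, with signs split between pairs in both muscles. Its means were −0.07 ± 0.25 (adjusted p = 0.699) and 0.09 ± 0.38 (adjusted p = 0.67), and either sign could turn with 1 pair: the mean was 0.01 without gastrocnemius pair 3 and −0.03 without TA pair 1. Lamc1, the gamma chain of most laminins, read 0.07, −0.47, −0.52 and −0.40 in gastrocnemius, low on 3 of 4 pairs. Its mean was −0.33 ± 0.27 (1.26 times lower, adjusted p = 0.116), which was not called; it was called by SAM, with both muscles in 1 fit (0.083) and without pair 1 (0.0432), over alternatives that ran up to 0.381. In TA it read −0.35, −0.36, 0.21 and −0.10, with a mean of −0.15 ± 0.27 (adjusted p = 0.384).

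The thrombospondins did not pass the test in either muscle, 0 of 4 in gastrocnemius and 0 of 4 in TA by limma, with none at an unadjusted p under 0.05, and SAM called none of them either. Their values spread widely between pairs, which was not particular to them among matrix genes. The SD over 4 pairs was 1.40 in gastrocnemius and 1.32 in TA for Fn1, and 0.83 and 1.80 for Col1a1. For Vtn it was smaller, 0.31 and 0.22. These genes were chosen after their values were seen. The SD over 4 pairs exceeded 0.5 for Thbs2, Thbs3 and Thbs4 in gastrocnemius and for all 4 thrombospondins in TA. Itga11, an alpha chain by which fibroblasts bind collagen, exceeded it in both muscles and Itga4, a chain of leukocyte and other integrins, in gastrocnemius, which made 5 of 35 and 5 of 33 members against 4.5% and 2.64% of all genes tested. Itga11 is described with them because of that spread, which was chosen after its values were seen.

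Of the thrombospondins taken by symbol, Thbs1 and Thbs2 form trimers and Thbs3 and Thbs4 form pentamers. The 150 bases before the start of Thbs2, Thbs3 and Thbs4 are printed here from RefSeq (build GRCm38.p6), each in the direction of its gene. No such sequence was at hand for Thbs1, which was not searched. The part of promoter motifs in the thrombospondin values was not tested. Capitals mark the motifs searched on both strands. These were the TATA box TATAAA, the GC box GGGCGG, the CCAAT box and the AP-1 motif TGANTCA. The windows are chr17:14694263-14694412 on the minus strand for Thbs2, chr3:89215030-89215179 on the plus strand for Thbs3 and chr13:92794819-92794968 on the minus strand for Thbs4.

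Thbs2: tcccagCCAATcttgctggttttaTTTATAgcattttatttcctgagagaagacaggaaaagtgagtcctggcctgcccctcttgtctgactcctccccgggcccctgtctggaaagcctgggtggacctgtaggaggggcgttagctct
Thbs3: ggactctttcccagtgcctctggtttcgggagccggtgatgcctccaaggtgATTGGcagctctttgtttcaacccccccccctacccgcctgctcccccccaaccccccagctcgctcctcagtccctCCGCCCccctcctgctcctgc
Thbs4: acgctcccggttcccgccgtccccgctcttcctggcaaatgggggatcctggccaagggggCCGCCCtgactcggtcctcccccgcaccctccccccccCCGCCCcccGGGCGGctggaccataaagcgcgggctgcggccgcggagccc

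The Thbs2 window held CCAAT on the gene's strand, 144 to 140 bases before the start, and TATAAA on the opposite strand at 126 to 121. Thbs3 held CCAAT at 98 to 94 and GGGCGG at 21 to 16, both on the opposite strand. In Thbs4 GGGCGG stood at 42 to 37 on the gene's strand and at 89 to 84 and 51 to 46 on the other. TGANTCA had no match in these windows, and no motif was found in all 3. Over 32851 promoter windows of the same length TATAAA occurred in 7.57%, GGGCGG in 28.6%, CCAAT in 24.5% and TGANTCA in 4.24%. A match describes the letters only.

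Thbs2, a thrombospondin that limits vessel growth and shapes collagen fibrils, read −0.25, −0.21, −1.84 and −0.09 on the gastrocnemius pairs and 0.77, −0.64, 1.16 and 0.61 on the TA pairs. In gastrocnemius pair 3 alone was far from 0, and in TA pair 2 went against the other pairs. The gastrocnemius pair 3 value came with a WT intensity of 9.72 on the log2 scale, where the other WT mice read 8.59, 7.66 and 8.37, while the Eif6+/- mouse of that pair, at 7.88, lay within the range of the other Eif6+/- mice, 7.45 to 8.34. The means were −0.60 ± 0.83 in gastrocnemius (adjusted p = 0.218) and 0.48 ± 0.78 in TA (adjusted p = 0.234), both smaller than their SD. Without TA pair 2, Thbs2 and Itga11 were both called higher in TA (0.85 and 0.50; adjusted p = 0.0464 and 0.0941), and without gastrocnemius pair 3 the gastrocnemius mean of Thbs2 was −0.18.

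Thbs3 read −0.62, 0.07, −1.37 and −0.10 in gastrocnemius and 0.43, −0.52, 1.08 and −0.32 in TA. Pair 3 was again the lowest in gastrocnemius and the highest in TA. Its means were −0.50 ± 0.65 (1.42 times lower, adjusted p = 0.194) and 0.17 ± 0.73 (adjusted p = 0.669), and without pair 3 the means were −0.22 in gastrocnemius and −0.14 in TA. A second Thbs3 probe followed the same course, −0.74, 0.16, −1.16 and 0.11 in gastrocnemius and 0.59, −0.49, 1.28 and −0.04 in TA.

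Thbs4, a thrombospondin of tendon and of the ends of muscle fibres, read −0.12, 0.39, −0.74 and 0.51 in gastrocnemius and 0.27, −0.12, 1.65 and −0.49 in TA. The TA pair 3 value came from the Eif6+/- mouse, at a log2 intensity of 13.26 where the other Eif6+/- mice read 11.91, 12.09 and 11.77 and the WT mice 11.61, that of the same array, to 12.27. Means were 0.01 ± 0.57 and 0.33 ± 0.94 (adjusted p = 0.979 and 0.486), and without TA pair 3 the TA mean was −0.11. In gastrocnemius the Thbs4 mean was −0.11 without pair 2 and −0.16 without pair 4. Thbs1, an activator of TGF-beta that platelets also store, read 0.14, 0.40, −0.55 and −0.08 in gastrocnemius and 0.54, −0.21, 1.13 and −0.13 in TA, with means of −0.02 ± 0.40 and 0.33 ± 0.63 (adjusted p = 0.936 and 0.303), which became 0.15 and 0.07 without pair 3 of the muscle.

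Read by array, the 4 thrombospondins and Itga11 shared their signs on 4 of 8 arrays. All 5 were below 0 on gastrocnemius pair 3 and TA pair 2 and above 0 on TA pairs 1 and 3, and each of these signs held under all 7 ways of computing the ratios. Itga4, whose SD also exceeded 0.5 in gastrocnemius, was above 0 on gastrocnemius pair 3 (0.46) and TA pair 2 (0.05), unlike these genes. On TA pairs 1 and 3 Itga4 was above 0 as they were (0.27 and 0.14). Itga11 read −0.23, 0.30, −1.51 and 0.48 in gastrocnemius and 0.83, −0.45, 0.39 and 0.28 in TA, and its gastrocnemius mean of −0.24 was 0.18 without pair 3. The median of the 4 thrombospondins was −0.18, 0.23, −1.05 and −0.09 on the gastrocnemius pairs and 0.49, −0.36, 1.14 and −0.22 on the TA pairs. The sign thus differed between pairs of 1 genotype contrast within a muscle.

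**Figure D3:**
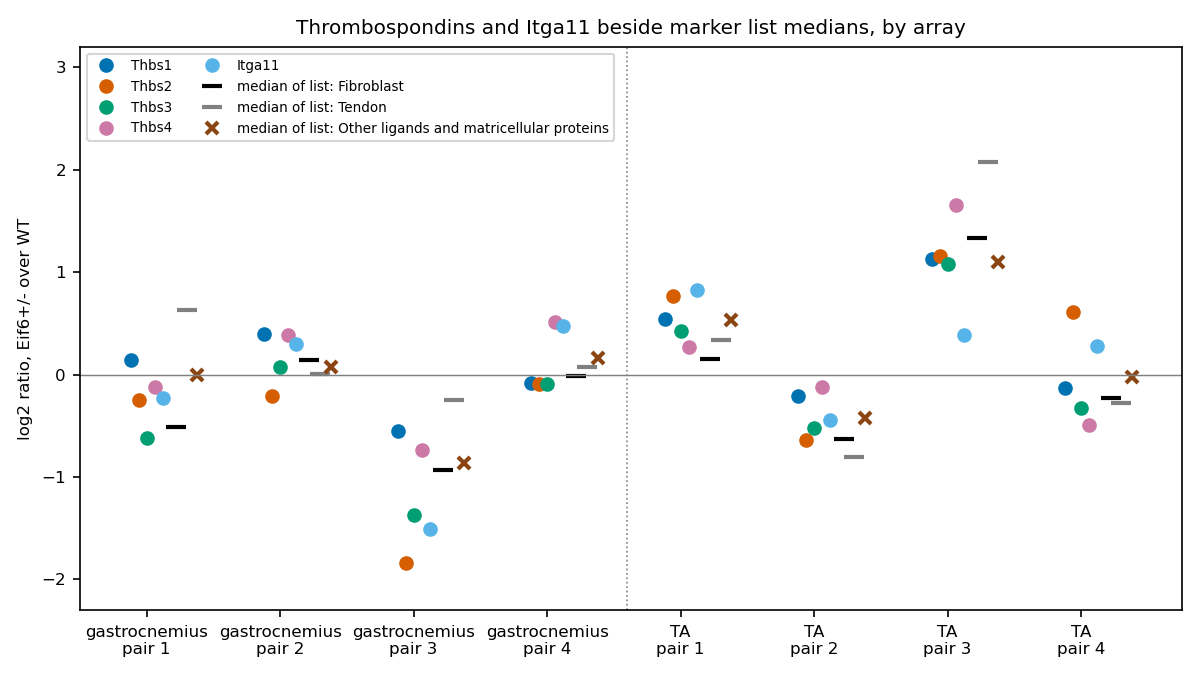
Log2 ratio of Eif6+/- over WT of Thbs1 to Thbs4 and Itga11 on each of the 8 arrays, beside the median ratio of the fibroblast, tendon and matricellular lists on the same array. The thrombospondins lie lowest on gastrocnemius pair 3 and highest on TA pair 3, where the fibroblast median was −0.93 and 1.33.

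Connective tissue markers swung on the same arrays. Of the 7 fibroblast markers, all tested in both muscles with Col1a2 the brightest, Dpt was called lower in gastrocnemius (−0.50, adjusted p = 0.0597) and none in TA, where none had an unadjusted p under 0.05 by limma either. The list median was −0.36 in gastrocnemius, by pair −0.51, 0.15, −0.93 and −0.01, and 0.12 in TA, by pair 0.15, −0.63, 1.33 and −0.23. Their summed intensity on gastrocnemius pair 3 was 86720 in the Eif6+/- mouse and 248800 in the WT mouse, and on TA pair 3 it was 156300 and 28620. On the other gastrocnemius pairs the sums were 126000 and 132700, 86810 and 78970, and 120900 and 102400, and on the other TA pairs 50590 and 46860, 42240 and 71640, and 51050 and 70290. The Dpt call was lost without gastrocnemius pair 3 or pair 4, and 3 markers were called without pair 2. In TA 1 marker was called without pair 3 and none without any other pair.

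Tendon markers gave a like picture in TA. No tendon marker was called in either muscle, among 5 tested in gastrocnemius and 4 in TA, where Mkx was not above background; by limma 2 in gastrocnemius and 0 in TA had an unadjusted p under 0.05. Fmod was the brightest, and the list medians were 0.04 and 0.34. By pair the median was 0.63, 0.01, −0.25 and 0.07 in gastrocnemius and 0.34, −0.80, 2.07 and −0.28 in TA. Summed intensities in Eif6+/- and WT were 9202 and 4918, 3938 and 5187, 5811 and 6990, and 8908 and 8585 in gastrocnemius, and 1386 and 1083, 2091 and 3122, 4536 and 1139, and 1405 and 1697 in TA. Per the labels, the muscles were trimmed of fat and connective tissue before freezing, with no record by mouse of what remained. The part of fibroblasts and tendon in the thrombospondin values was not tested.

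Between the muscles, no member differed by the test of the difference itself: limma called 0 of 33 members and 0 of 12206 genes (0%), with 2 members and 999 genes at an unadjusted p under 0.05. Those members were Itgb6, a chain of an epithelial integrin, and Thbs2. Itgb6 had means of 0.20 in gastrocnemius and −0.24 in TA, a difference of 0.44 ± 0.15 (SE, adjusted p = 0.635), and Thbs2 a difference of −1.07 ± 0.43 (adjusted p = 0.635). So the calls of Itga5, Itgb1, Lama4 and Tnxb in gastrocnemius, and of Lamb2 in TA, are not shown to belong to 1 muscle.

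**Figure D4:**
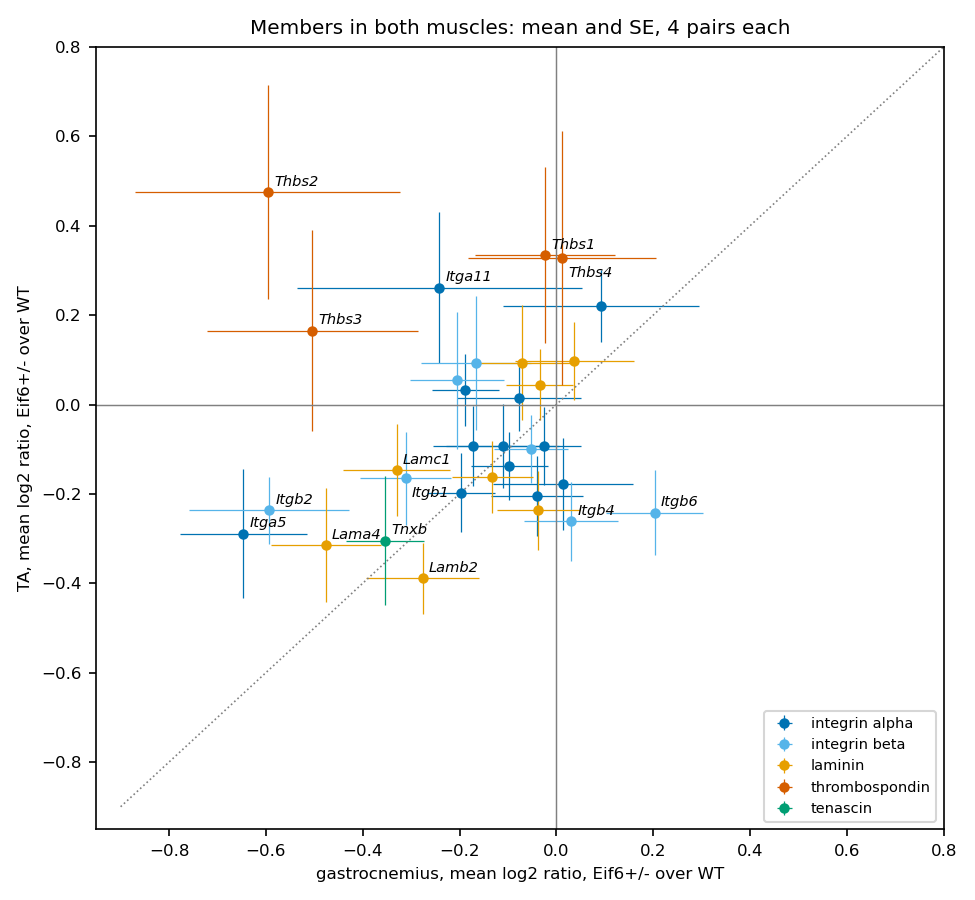
Mean log2 ratio of Eif6+/- over WT in gastrocnemius (horizontal) and TA (vertical) for the members tested in both (1 not shown), with the SE of 4 pairs in each direction and a dotted line where the muscles are equal. Itga5, Itgb1, Itgb2, Lama4, Lamb2 and Tnxb lie below 0 in both muscles, while Thbs2 and Thbs3 lie below 0 in gastrocnemius and above 0 in TA.

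None of the remaining members was called by limma in either muscle's own fit, though some alternatives called a few. The alpha chains Itga1, for collagen, Itga3 and Itga6, for laminin, and Itga8, Itga9 and Itgav, for fibronectin, tenascin and related ligands, had means from −0.20 to 0.01 in gastrocnemius and from −0.20 to 0.03 in TA, with Itga3 and Itgav at adjusted p of 0.137 and 0.144 in gastrocnemius, where SAM called both lower and the normexp offset of 0 called Itga3. A second Itga1 probe read 0.11 in gastrocnemius and 0.09 in TA, above 0 where the brighter probe lay below. A second Itgav probe read −0.23, 0.12, −0.04 and −0.19 on the gastrocnemius pairs, with a mean of −0.08 (adjusted p = 0.577), and −0.02 in TA. Itga4 had means of 0.09 and 0.22, above 0 on all 4 TA arrays (adjusted p = 0.123), and was called higher in TA with loess alone. Of the beta chains, Itgb4, which pairs with Itga6 to bind laminin, lay below 0 on all 4 TA arrays with a mean of −0.26 (adjusted p = 0.104) and at 0.03 in gastrocnemius. SAM and the fit with no filter on dim probes called it lower in TA. Itgb3, Itgb5 and Itgb7 had means of −0.21, −0.05 and −0.17 in gastrocnemius and 0.05, −0.10 and 0.09 in TA. Lama5 and Lamc3 had means of 0.04 and −0.03 in gastrocnemius and 0.10 and 0.04 in TA. By family the medians were −0.10 and −0.09 for alpha chains, −0.17 in both muscles for beta chains, −0.05 and −0.15 for laminins, and −0.26 and 0.33 for thrombospondins, in gastrocnemius and TA in turn.

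Genes that act with integrins inside the cell also had more calls lower than higher. Of 25 focal adhesion genes 20 were tested in each muscle. In gastrocnemius 4 were called lower and 1 higher, with a median of −0.15: Vcl, which links integrins to actin, Ilk and Parva, partners in the kinase complex on the Itgb1 tail, and Pxn, a scaffold, were lower (−0.49, −0.49, −0.37 and −0.31; adjusted p = 0.0415, 0.0456, 0.0531 and 0.0876), and Lims2 was higher (0.36, adjusted p = 0.0804). In TA 5 were called lower and none higher, with a median of −0.08: Parvb, Tns2, Ilk, Pxn and Itgb1bp2 (−0.43, −0.33, −0.38, −0.33 and −0.35; adjusted p = 0.0361, 0.0394, 0.0479, 0.0528 and 0.0763). Ilk and Pxn were called lower in both muscles, and Lims2, Parvb, Tns2 and Itgb1bp2 encode further proteins that bind at or near the integrin tail. Beyond the 4 of smallest adjusted p, Pxn in gastrocnemius and Itgb1bp2 in TA were named after their values were seen. The counts fell to 0 without gastrocnemius pair 3 or pair 4 or TA pair 1, and to 3 without gastrocnemius pair 2 and 2 without TA pair 2.

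The other laminin receptor of fibres, dystroglycan, was called lower in both muscles. Dag1, its gene, had means of −0.57 in gastrocnemius and −0.39 in TA (adjusted p = 0.0333 and 0.0292). Of the 21 genes of the dystrophin and dystroglycan complex, 20 were tested in gastrocnemius, with 1 lower and 3 higher and a median of 0.01. Sspn and Dmd were among those higher (0.40 and 0.27; adjusted p = 0.0444 and 0.0812). In TA 19 were tested, with 4 lower and 1 higher and a median of −0.02: Pomt1 was among those lower (−0.39, adjusted p = 0.0419), and Sspn was higher (0.24, adjusted p = 0.0939). Sspn encodes a membrane protein of the complex and Dmd dystrophin itself, and Pomt1 encodes an enzyme that starts the sugar chain by which dystroglycan binds laminin. Sspn in TA was named after its values were seen. The counts were 0 without gastrocnemius pair 3 or pair 4 or TA pair 1, 2 without gastrocnemius pair 2, and 1 and 3 without TA pair 2 and TA pair 3.

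Among the other parts of the basement membrane, 11 of 12 genes were tested in each muscle. Col4a1 and Col4a2, the chains of its main collagen, were called lower in both: −0.60 and −0.55 in gastrocnemius (adjusted p = 0.0318 and 0.0298), and −0.63 and −0.56 in TA (adjusted p = 0.0352 and 0.0317). Hspg2, the proteoglycan perlecan, was lower in gastrocnemius (−0.48, adjusted p = 0.0316). Agrn, which also binds laminin, was higher in both (0.29 and 0.24; adjusted p = 0.0693 and 0.0993). That made 3 lower and 1 higher in gastrocnemius, with a median of −0.12, and 2 lower and 1 higher in TA, with a median of −0.04. None was called without gastrocnemius pair 3 or pair 4 or without TA pair 1 or pair 2, and 2 were called without TA pair 3.

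Of the 12 other ligands and matricellular proteins, 12 were tested in gastrocnemius and 11 in TA, where Spp1 was not. Bgn, a small collagen-binding proteoglycan, was called lower in gastrocnemius (−0.93, adjusted p = 0.0868), and Ccn2, a matricellular protein induced by TGF-beta, higher in TA (0.68, adjusted p = 0.0772). The list medians were −0.08 and 0.23, and by pair −0.01, 0.07, −0.86 and 0.16 in gastrocnemius and 0.54, −0.42, 1.096 and −0.03 in TA, which followed the thrombospondins. Fn1, the fibronectin bound by Itga5, was not called and read −1.12, 0.72, −2.46 and 0.06 in gastrocnemius and 0.89, −0.90, 2.09 and −0.27 in TA. Postn, which marks active matrix deposition, read −3.61, 0.40, −4.88 and −0.08 in gastrocnemius and −0.65, 0.30, 3.07 and −1.48 in TA. Both were chosen after their values were seen, and both were low on gastrocnemius pair 3 and high on TA pair 3. The Bgn call was lost without gastrocnemius pair 1, 3 or 4, the Ccn2 call was lost without TA pair 1, and 2 genes were called without gastrocnemius pair 2, TA pair 2 or TA pair 4.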

How the data were processed

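The deposited scanner files hold spot and local background intensity from the authors' Agilent Feature Extraction run, and the deposited value table holds log2 ratios of Cy5 over Cy3. The table's values matched loess-normalized ratios without background correction (r = 0.999963 to 0.999996), with no quantile step, though the methods name quantile normalization; the methods also name Cy3 alone, while the labels give both dyes. Median spot intensity was used here, since the files hold no mean. Spots with the scanner's non-uniformity or population outlier marks were dropped (233 to 318 of 59305 per array), no spot was saturated, and spots of 1 probe were averaged.

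With limma 3.58.1 in R 4.3.3, background was corrected by normexp (offset 50), then loess ran within arrays and quantile normalization across the 16 channels. Of 55681 probes, 28685 carried a RefSeq accession and 27235 matched a gene (names from GRCm38.p6). A probe was kept in a muscle if each of its 4 arrays had a channel well above background, which left 23806 in gastrocnemius, 23397 in TA and 22784 in both, and a gene is its brightest probe. limma's moderated test set each muscle's mean ratio against 0, and a contrast over 8 arrays tested the difference. P-values were adjusted by Benjamini-Hochberg over all kept probes and called under 0.1. The fits were tested on simulated data. SDs are over pairs and SEs are limma's.

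Full values were planned for members called in either muscle or in the difference, Itgb1, Tnxb, Thbs3, Eif6, Itga7, Lama2, Lamb1, Lamb2 and Lamc1, and for up to 4 called genes per list and muscle with the smallest adjusted p. Members and lists (4 pathway and 12 cell marker lists) were chosen with earlier results of these data known, and lists were described by counts and medians alone. Alternatives were other normalizations and background corrections, Agilent's processed signals, the deposited ratios, other probe filters, the mean over probes, SAM and the unpaired t-test of the methods, 1 fit of both muscles, an adjusted p under 0.05, the pair number as a block, and leaving out each pair. Promoter sequences are from RefSeq, and figures were drawn with matplotlib 3.10.9 in Python 3.11.15. Some genes that the planned naming takes, 1 member among them, are counted but not reported here.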

Additional observations from a re-analysis of the deposited data

Results flagged for a closer look

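Of 70 sets of 4 log2 ratios, those of the members and Eif6 in each muscle, 5 held a pair whose gap to the nearest other pair was larger, as a share of the whole range, than Dixon's critical limit for 4 values, which chance gives in about 1 of 20 groups. Thbs2 read −1.84 on gastrocnemius pair 3, against −0.25 to −0.09 on the other pairs. Tnxb read −0.56 on gastrocnemius pair 3, against −0.31 to −0.27. Itgb5, which pairs with Itgav, read −0.22 on gastrocnemius pair 3, against −0.02 to 0.02. Lama3 read −0.36 on gastrocnemius pair 2, against −0.09 to −0.04. Lama5, a laminin alpha chain of vessels and epithelia, read 0.39 on TA pair 1, against −0.03 to 0.03 on the other TA pairs. Of these genes Tnxb was called in gastrocnemius, and 3 of the 5 values stood on gastrocnemius pair 3.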

How the results depend on the processing

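Signal over background limits these values, since 38.8% to 48.6% of probes stood well above background in a channel. The 5 members called in gastrocnemius became 1 with Agilent's processed signals, 9 with SAM, 0 with the unpaired t-test of the methods (6 members at an unadjusted p under 0.05), 1 at an adjusted p under 0.05, and 0 to 5 when each pair was left out. The 3 called in TA became 1 with Agilent's signals, 5 with no filter on dim probes, 1 with the t-test, 1 with both muscles in 1 fit, 1 at an adjusted p under 0.05, and 0 to 2 when each pair was left out. The difference between muscles gave 0 members in all 18 alternatives, with 1 to 5 at an unadjusted p under 0.05. Fitted with the pair number as a replicate block it gave 0 members (2 at an unadjusted p under 0.05). Each array's deviations from the mean of its muscle were correlated over genes between the muscles. The values were −0.12, −0.01, −0.36 and 0.11 for equal numbers and −0.31 to 0.31 for unequal numbers. They cannot tell whether equal numbers mark the same mice, since the muscles of a mouse need not vary together. The member median stayed between −0.16 and −0.08 in gastrocnemius and between −0.13 and −0.04 in TA over 13 alternatives each. Agilent's signals moved the median of all genes to 0.12 in gastrocnemius and 0.09 in TA, and the share of calls that were higher from 64% to 91.2% and from 55.3% to 79%. Signs turned for Lama2 in gastrocnemius with Agilent's signals (0.038), with the mean over probes (0.057) and without pair 3 (0.030, the range over left-out pairs being −0.10 to 0.030); for Lamb1 in gastrocnemius with Agilent's signals (0.0014) and without pair 3 (0.011; range −0.18 to 0.011); for Lamb1 in TA without pair 1 (−0.033; range −0.033 to 0.20); and for Thbs3 in TA without pair 3 (−0.14; range −0.14 to 0.39). Of the other values for single genes 356 kept their direction and side of the threshold, 48 lost a call and 5 gained one; of the list counts 64 stayed within 1.5 times, 54 were lower and 10 higher. Means of Thbs1, Thbs4 and Itga11 that also turned sign without a pair are given with those genes. The cause was not tested.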

Other observations

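The other cell types of the muscle gave further called markers, none of them an integrin, laminin, thrombospondin or tenascin. Of the smooth muscle and pericyte markers, all 7 tested, 2 were called lower in gastrocnemius and 4 in TA, with Cnn1 and Rgs5 called in neither muscle: Pdgfrb and Acta2 in gastrocnemius (−0.43 and −0.46; adjusted p = 0.0373 and 0.0673; list median −0.21) and Acta2, Cspg4, Tagln and Myh11 in TA (adjusted p = 0.028, 0.0297, 0.0344 and 0.047; list median −0.51). Of 5 Schwann cell markers none was called in gastrocnemius (0 at an unadjusted p under 0.05 by limma; median −0.10), and 3 were called lower in TA, among them Prx and Mbp, which serve the myelin of nerves (−0.44 and −0.21; adjusted p = 0.0267 and 0.0876; median −0.29). Red blood cell markers, 5 tested, gave none called in gastrocnemius (3 at an unadjusted p under 0.05; median −0.27) and 4 lower in TA, Alas2, Hbb-bs, Hbb-bt and Hba-a1 (−0.67, −1.30, −0.64 and −0.72; adjusted p = 0.0137, 0.0166, 0.0257 and 0.0277; median −0.67). These are values of blood, nerve and vessel wall in whole muscle, and their part in the members' values was not tested. Without gastrocnemius pair 3 or pair 4 no marker of these lists was called, without gastrocnemius pair 1 the red blood cell count was 3, and without TA pair 1 the counts were 0 for smooth muscle, 1 for Schwann cells and 0 for red blood cells; without TA pair 2 smooth muscle gave 2.

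Fat, blood and fibre markers varied in direction. Of 4 adipocyte markers tested, Cfd and Adipoq were called lower in gastrocnemius (−0.89 and −0.64; adjusted p = 0.0741 and 0.0996; median −0.48) and Plin1 higher in TA (0.51, adjusted p = 0.079; median 0.47). Neutrophil markers gave none called of 1 tested in gastrocnemius (0 at an unadjusted p under 0.05; median 0.03) and S100a9 and Camp lower of 2 tested in TA (−1.61 and −0.32; adjusted p = 0.0343 and 0.0989; median −0.97). Of the platelet markers Ppbp was called higher of 2 tested in gastrocnemius (0.38, adjusted p = 0.0522; median −0.06), and Pf4, the 1 tested in TA, was not called (−0.01; 0 at an unadjusted p under 0.05). Satellite cell markers gave none called, with 2 tested in gastrocnemius (median −0.18) and 3 in TA (median −0.08), and 1 in each muscle at an unadjusted p under 0.05. Among 8 fibre markers Myh1 was higher and Ckm and Atp2a1 were lower in gastrocnemius (0.96, −0.37 and −0.72; adjusted p = 0.0519, 0.0578 and 0.0744; median −0.08), and Myh4 was higher and Atp2a1 and Mylpf were lower in TA (0.80, −0.60 and −0.34; adjusted p = 0.0119, 0.049 and 0.0506; median −0.04). Counts in these lists were 0 without gastrocnemius pair 3 or pair 4. Fibre markers gave 5 without gastrocnemius pair 1, 1 without gastrocnemius pair 2, and 1 without TA pair 1, 2 or 3; platelet markers gave 2 without gastrocnemius pair 2. In TA the neutrophil count was 0 without pair 1 and 1 without pair 2, 3 or 4, and the adipocyte count was 0 without pair 1, 3 or 4 and 2 without pair 2.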
